A study of Mus musculus with 38 samples.

Results

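The nuclear subunits of respiratory complexes III, IV and V are described here in the hippocampus of 38 mice. The members were found by symbol. A member is a protein-coding mouse gene whose symbol begins with Uqcr or Atp5, or is one of Cox4 to Cox8 followed by a letter, and Cyc1 was added. This gave 44 of the 48709 genes counted, 9 of complex III, 18 of complex IV and 17 of complex V. The symbol rule also takes in Cox7a2l, which joins complexes III and IV in supercomplexes, and Atp5s, a coupling factor.

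The mice were C57BL/6 wild types (WT) or carried the APPPS1ΔE9 transgenes, which form amyloid plaques and are driven by the mouse prion protein promoter. Both genotypes received food pellets with anle138b, a diphenylpyrazole compound, at 2 g per kg food, or placebo pellets. The pre-plaque group was treated from 2 months of age and analyzed at 6 months, and the post-plaque group was treated from 6 months and analyzed at 10 months. The pre-plaque group held 4 mice of each genotype and treatment. In the post-plaque group there were 5 WT mice on placebo and 5 on anle138b, and 5 APPPS1ΔE9 mice on placebo and 7 on anle138b. Each library was made from the mRNA of 1 mouse, and the read counts of all genes were used.

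Complex III takes electrons from ubiquinol and hands them to cytochrome c, complex IV (cytochrome c oxidase) passes them to oxygen, and complex V (ATP synthase) uses the proton gradient that both build to make ATP. The catalytic cores of complexes III and IV and the proton channel of complex V contain subunits encoded in mitochondrial DNA, while all members described here are encoded in the nucleus and imported. Several complex IV subunits come in tissue forms, with separate genes used in heart and skeletal muscle, lung or testis. Neurons depend on these complexes for most of their ATP.

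The labels were checked first. App reads were between 3228 and 4318 CPM (reads scaled to a common library total) in the APPPS1ΔE9 mice and between 1506 and 1809 CPM in the WT mice, and Prnp, which shares the promoter of the transgenes, gave the same division. The 4 pre-plaque WT mice on placebo carry WT in their titles but a transgenic genotype in another label, and their App and Prnp levels were those of WT mice. The methods describe all mice as male, but 12 of 38 mice had Xist at 1154 CPM or more and almost no Y-linked reads. These were, before plaques, 3 of 4 WT mice on placebo and 2 of 4 on anle138b, and after plaques 3 of 5 mice in each WT group and 1 of 7 APPPS1ΔE9 mice on anle138b. The other 3 groups held none. Sequencing lanes also followed the groups: before plaques, placebo-treated WT mice were in lane 4, placebo-treated APPPS1ΔE9 mice in lane 5 and anle138b-treated APPPS1ΔE9 mice in lane 6. After plaques, the WT mice were in lane 3 on placebo, apart from A56 in lane 4, and in lane 4 on anle138b. The APPPS1ΔE9 mice were then in lane 5 on placebo and in lane 6 on anle138b, apart from B58 in lane 5. The same sample and lane numbers recur in the titles of both cohorts, so a lane number need not mean the same lane in both. The 5 choroid plexus markers summed to between 32.5 and 715 CPM in 27 mice and to between 3943 and 7924 CPM in 11 mice, so the dissections held very unequal amounts of this tissue. Markers of hippocampal principal neurons were present in every library. Total counts per mouse were between 15847985 and 31895808.

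Promoter windows were available from RefSeq (GRCm38.p6) for 33 of the 44 members, each reaching from 250 bases before to 50 bases after the start site. They were searched on both strands for the letters of 4 factors tied to respiratory genes. The NRF1 letters, GCGCA then any base and GCGC, were in 8 of 33 members (24.2%) and in 5.19% of the 27025 genes with a window. The GABPA letters CCGGAAG were in 10 members (30.3%) and 9.93% of genes, and the YY1 letters AANATGGC in 5 members (15.2%) and 6.96% of genes. The SP1 letters GGGCGG were in 12 members (36.4%) and 38.2% of genes. A match is a description of the sequence and not a binding site. No window was given for Cyc1, Uqcrb, Uqcrc2, Uqcrq, Cox4i1, Cox4i2, Cox6a2, Cox6c, Cox8c, Atp5a1 and Atp5mpl. The windows below belong to Uqcr10, Cox8a and Atp5e, the members that DESeq2 called in the pre-plaque comparisons below, and to Atp5k, a member described below by mouse whose window held both NRF1 and GABPA letters, as did those of Atp5h and Cox6a1. Capitals mark the matches on either strand, and the Uqcr10 window held none. All 4 genes lie on the minus strand and their windows are written 5′ to 3′ of the gene.
Uqcr10, chr11:4704295-4704594: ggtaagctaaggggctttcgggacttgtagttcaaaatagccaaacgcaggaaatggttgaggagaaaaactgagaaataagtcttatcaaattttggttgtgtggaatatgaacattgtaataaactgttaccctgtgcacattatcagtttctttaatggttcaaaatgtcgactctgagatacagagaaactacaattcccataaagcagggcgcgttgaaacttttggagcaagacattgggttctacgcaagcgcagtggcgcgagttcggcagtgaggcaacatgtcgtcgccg
Cox8a, chr19:7217567-7217866: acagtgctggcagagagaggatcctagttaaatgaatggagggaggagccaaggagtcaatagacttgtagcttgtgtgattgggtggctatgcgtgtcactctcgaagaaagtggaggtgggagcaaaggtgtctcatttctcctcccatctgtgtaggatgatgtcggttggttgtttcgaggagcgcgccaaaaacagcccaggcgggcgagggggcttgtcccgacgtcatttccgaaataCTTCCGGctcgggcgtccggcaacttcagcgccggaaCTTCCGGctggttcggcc
Atp5e, chr2:174464052-174464351: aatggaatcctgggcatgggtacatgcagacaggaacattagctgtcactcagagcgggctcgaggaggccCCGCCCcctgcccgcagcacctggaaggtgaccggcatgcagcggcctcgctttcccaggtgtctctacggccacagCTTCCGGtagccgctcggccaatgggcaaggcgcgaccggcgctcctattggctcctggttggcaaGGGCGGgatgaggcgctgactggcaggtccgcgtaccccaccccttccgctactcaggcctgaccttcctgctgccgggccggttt
Atp5k, chr5:108434350-108434649: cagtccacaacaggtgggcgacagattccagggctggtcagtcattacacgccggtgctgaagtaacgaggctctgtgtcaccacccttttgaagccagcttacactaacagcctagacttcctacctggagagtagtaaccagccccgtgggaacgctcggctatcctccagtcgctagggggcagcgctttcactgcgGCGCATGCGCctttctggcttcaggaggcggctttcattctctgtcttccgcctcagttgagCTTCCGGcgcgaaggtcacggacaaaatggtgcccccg

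Levels were compared between genes per kilobase of the longest protein-coding transcript. Of the 44 members, 43 passed the filter on low counts over the 38 mice, and 34 had a mean of at least 10 CPM. Cox8c, a testis form, was at 0 in 35 mice and reached at most 2 reads. The highest level belonged to Atp5b, the catalytic beta subunit of ATP synthase, at 609 CPM per kb. It was followed by Cox4i1, a structural and regulatory subunit of complex IV, at 469 CPM per kb. Cox8a stood at 374, Cox6a1 at 363, and Atp5a1, the alpha subunit that alternates with beta in the catalytic head, at 346 CPM per kb. In complex III, Uqcrh, the hinge protein that helps cytochrome c1 to pass electrons on, led at 219 CPM per kb, and Uqcr10 stood at 196 CPM per kb.

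**Figure D1:**
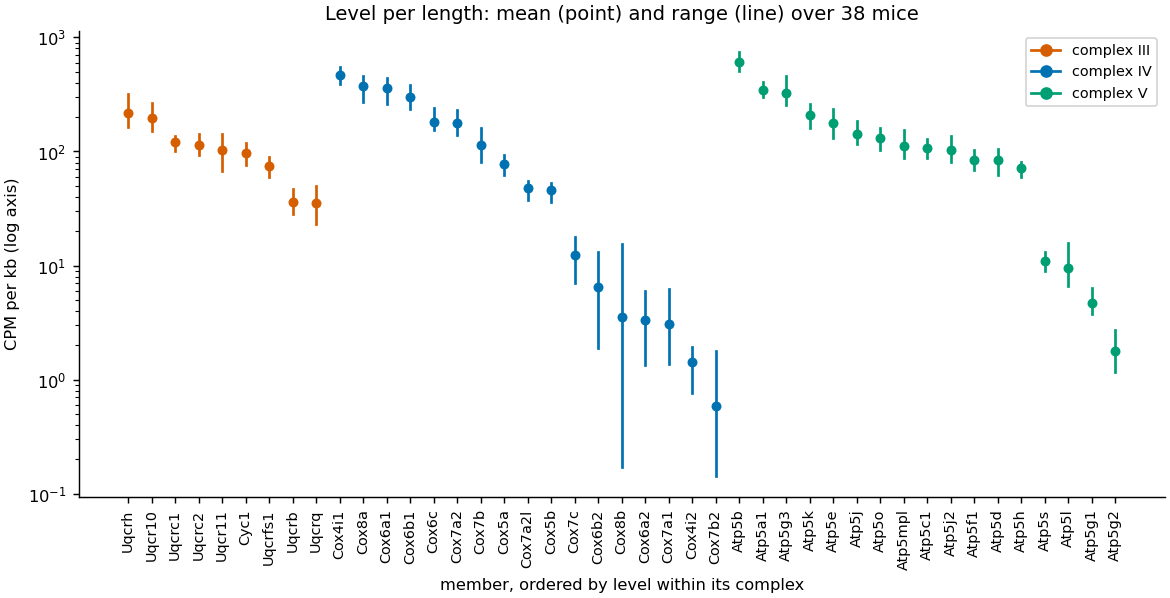
Level of 43 members in CPM per kb of the longest protein-coding transcript on a log axis, with the mean over 38 mice as a point and the lowest value above 0 to the highest value as a line. Most of the ubiquitous forms stand between 35.05 and 609 CPM per kb, and the muscle, lung and testis forms of complex IV lie at 6.55 CPM per kb or lower.

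In every pair of complex IV forms 1 gene was far more abundant in the hippocampus. Cox4i1 exceeded Cox4i2, the form known from lung, 328-fold per length of the coding transcript, with 1.43 CPM per kb for Cox4i2, and 174-fold by the length of all exons. The ubiquitous Cox6a1 exceeded the heart and muscle form Cox6a2 109.3-fold, and Cox8a exceeded the muscle form Cox8b 105-fold. Cox7a2 exceeded the muscle form Cox7a1 58.2-fold, and Cox6b1 exceeded the testis form Cox6b2 46.1-fold, or 76.2-fold by the length of all exons. Cox7b exceeded Cox7b2 194-fold. Each of these pairs was apart by far more than the spread over mice, as the plot of level per length shows. The 3 genes Atp5g1, Atp5g2 and Atp5g3 encode the c subunit, which forms the rotor ring of ATP synthase. Atp5g3 stood at 328 CPM per kb, against 4.69 for Atp5g1 and 1.79 for Atp5g2. The longest Atp5g1 transcript has 4715 bases, and by the length of all exons Atp5g3 was 24.2-fold above Atp5g1.

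Copies of these genes limit what some of the low levels mean. By sequence, 19 members have pseudogene copies in the annotation, with 16 for Atp5l, 6 each for Atp5g1 and Atp5h and 5 for Cox7c. Atp5l, the g subunit of ATP synthase, stood at 9.48 CPM per kb and Cox7c at 12.4 CPM per kb, and reads shared with the copies could not be told apart. The counting is not stated to use strand, and Atp5j overlaps Gabpa, Cox6c overlaps Vps13b and Cox4i1 overlaps Emc8 on the opposite strand.

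The mean log2 CPM over the members gave 1 level per mouse. Over the 43 members, pre-plaque placebo-treated WT mice were at 5.702, 5.71, 5.82 and 5.89, and anle138b-treated WT mice at 5.67, 5.71, 5.73 and 5.81. Placebo-treated APPPS1ΔE9 mice were at 5.39, 5.57, 5.62 and 5.66, and anle138b-treated APPPS1ΔE9 mice at 5.596, 5.73, 5.74 and 5.78. All 4 placebo-treated APPPS1ΔE9 mice lay below all 8 WT mice, and 1 of them, mouse A71 at 5.39, lay apart from the rest of its group. Over the 34 abundant members, the 4 placebo-treated APPPS1ΔE9 mice (6.81 ± 0.083, mean ± SD) lay below the other 12 pre-plaque mice, which were between 6.89 and 7.02. A71 was the lowest of its group in 31 of these 34 members. The level is a description and has no test.

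Post-plaque levels over the 34 members were between 6.47 and 6.77 in all 22 mice, under 15 of the 16 pre-plaque mice. The post-plaque groups lay close together, at 6.59 ± 0.071 in placebo-treated WT mice, 6.65 ± 0.082 in anle138b-treated WT mice, 6.66 ± 0.095 in placebo-treated APPPS1ΔE9 mice and 6.59 ± 0.078 in anle138b-treated APPPS1ΔE9 mice. Of the 43 members, Cox6a1 had all post-plaque values below all pre-plaque values (149.6 to 209.8 CPM against 209.9 to 249.7 CPM), as did 0.176% of 18232 genes, and Cox7c had all of them above (8.96 to 12.6 CPM against 5.03 to 8.46 CPM), as did 1.55%. Both were singled out after their values were seen. The choroid plexus markers differed with the cohort, with a median of 6098.5 CPM before plaques and 92.2 CPM after and 10 of the 11 high mice in the pre-plaque cohort, and their part in the level was not tested. Age, length of life with the transgenes and any batch of preparation or sequencing, which the labels do not name, cannot be told apart between the cohorts.

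Group means of the main forms were lower after plaques in each of the following. Cox4i1 had group means between 375 (placebo-treated APPPS1ΔE9) and 406 CPM before plaques and between 321 and 342 CPM after, and Cox6a1 between 223 and 238 CPM before and between 185 and 197 CPM after. Cox7a2 had means between 123 and 142 CPM before plaques and between 104 and 107 CPM after, and in Cox6b1 they were between 193 and 222 CPM before and between 163 and 174 CPM after. Atp5g3 stood between 255 and 283 CPM before plaques and between 205 and 219.6 CPM after. In each of these, placebo-treated APPPS1ΔE9 mice had the lowest mean of the 4 pre-plaque groups, and the SD within the 8 groups was between 3.66 and 34.9 CPM. Cox4i2, with means between 0.907 and 1.16 CPM, and Cox6a2, between 2.06 and 2.68 CPM, had no such order, and neither had Atp5g1 (20.5 to 25.3 CPM) or Atp5g2 (1.06 to 1.62 CPM).

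**Figure D2:**
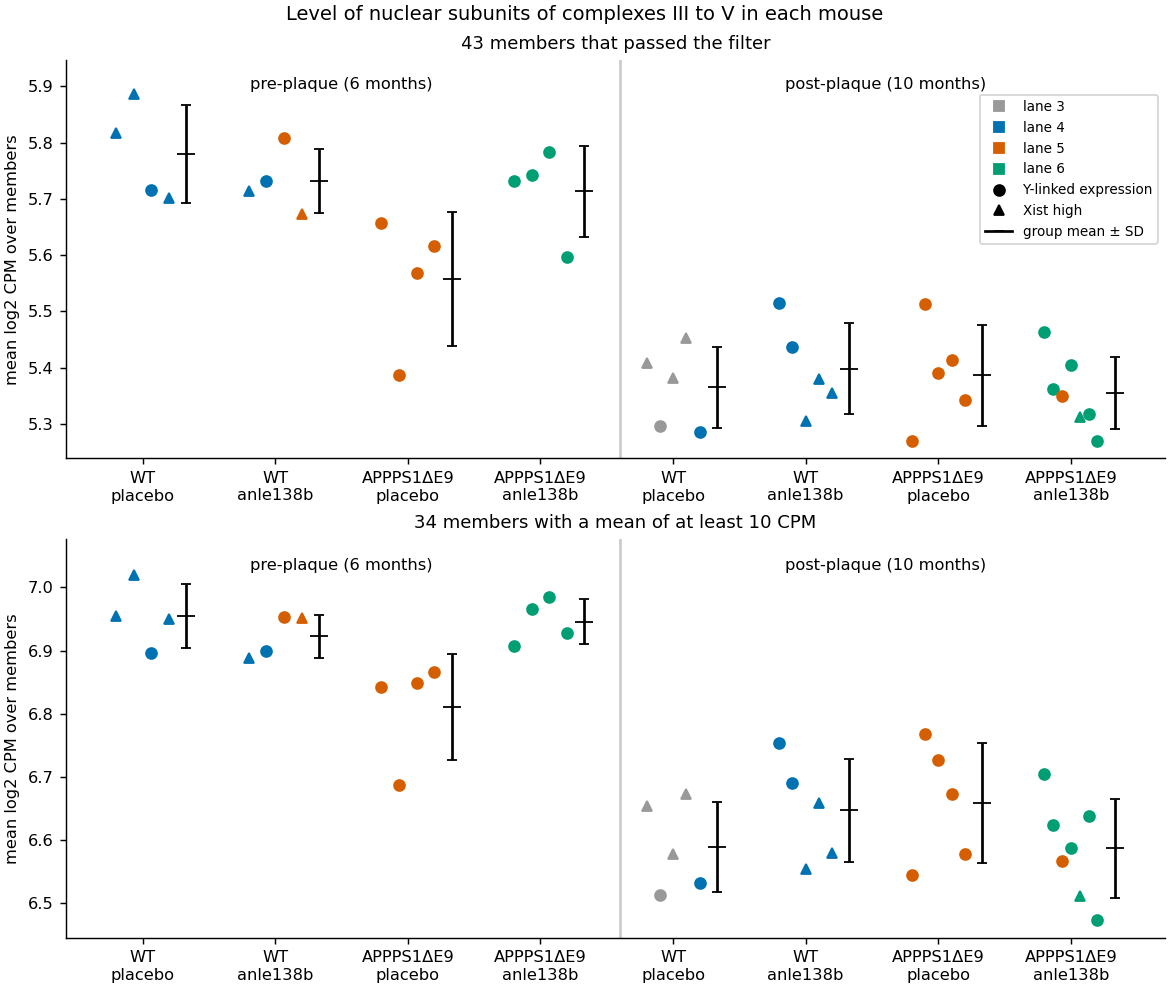
Mean log2 CPM over members in each of 38 mice, for the 43 members that passed the filter (top) and the 34 with a mean of at least 10 CPM (bottom). The group mean ± SD is in black, color gives the lane number within each cohort, and triangles mark mice with high Xist. In the bottom panel the 4 pre-plaque APPPS1ΔE9 mice on placebo lie between 6.69 and 6.87, under the other 12 pre-plaque mice, and the 4 post-plaque groups overlap.

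The first comparison asked how the subunits differed between placebo-treated APPPS1ΔE9 and WT mice before plaques. Most of the subunits were slightly lower in the APPPS1ΔE9 mice, but no member passed the threshold. With edgeR's quasi-likelihood test, 0 of 43 members had an adjusted p under 0.1, where 0.0715% of the 16774 genes tested did. At an unadjusted p under 0.05, 18 of 43 members were lower and 0 higher, against 5.86% and 5.22% of all genes. In 39 of 43 members the log2 fold change was below 0, against 49.2% of all genes, and in 15 of 43 the 4 APPPS1ΔE9 values lay below all 4 WT values, against 3.45%. The median log2 fold change was -0.16 over the members and 0.0023 over all genes. By complex it was -0.14 over 9 members of complex III, -0.21 over 17 of complex IV and -0.16 over 17 of complex V. DESeq2 called 1 member, Uqcr10, where it called 0.468% of 19020 genes. The 18 lower members were Uqcr10, Uqcr11 and Uqcrh in complex III, Cox6b1, Cox6c, Cox7a2, Cox7b, Cox7c and Cox8a in complex IV, and Atp5e, Atp5f1, Atp5h, Atp5j, Atp5j2, Atp5k, Atp5l, Atp5mpl and Atp5o in complex V, with log2 fold changes between -0.49 (Atp5l) and -0.13 (Atp5h). The 4 members above 0 were Uqcrc1, Cox4i2, Cox5b and Atp5d, between 0.0096 and 0.078.

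**Figure D3:**
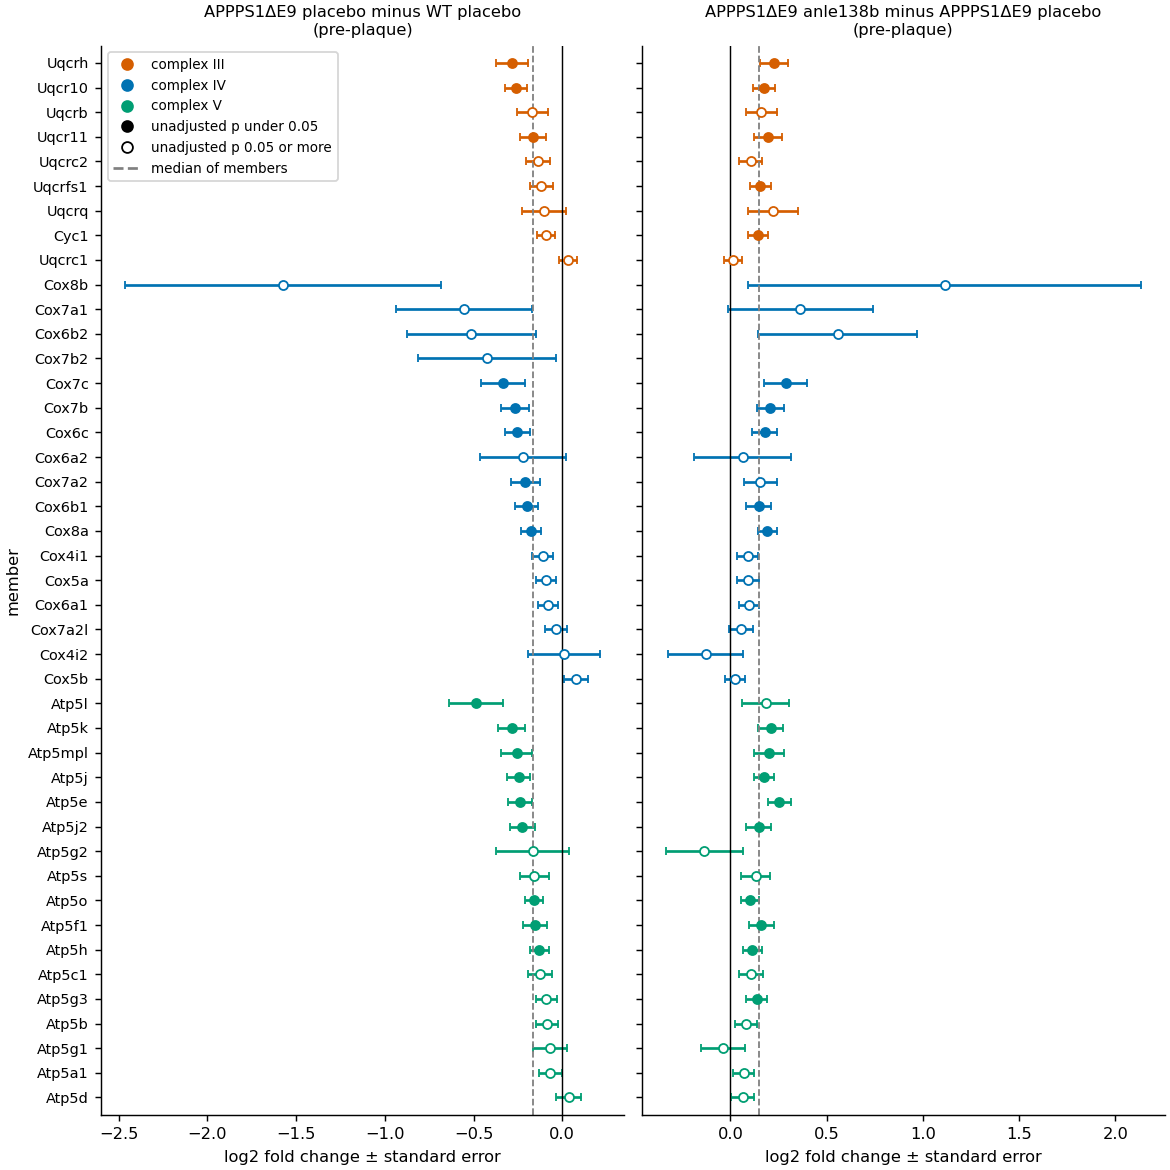
Log2 fold change with its standard error for each member tested in the pre-plaque group, in placebo-treated APPPS1ΔE9 against placebo-treated WT mice (left) and anle138b-treated against placebo-treated APPPS1ΔE9 mice (right), filled where the unadjusted edgeR p is under 0.05, with the median of the members dashed. The medians are -0.16 and 0.15. Both panels use the same 4 placebo-treated APPPS1ΔE9 mice, so they are not independent.

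In complex III, Uqcr10 and Uqcrh had the lowest p-values. Uqcr10, a small subunit beside cytochrome c1, was at 101, 105, 106 and 114 CPM in the WT mice and at 79.4, 91.4, 91.7 and 92.4 CPM in the APPPS1ΔE9 mice. The groups did not overlap, and 3 of the 4 APPPS1ΔE9 values were almost equal. Its log2 fold change was -0.26 ± 0.062 (standard error, as below, edgeR adjusted p = 0.294, DESeq2 adjusted p = 0.0507, with adjusted p from 0.0312 to 0.994 over the alternatives). Uqcrh was at 135, 136, 147 and 173 CPM in the WT mice and 104, 122, 129 and 131 CPM in the APPPS1ΔE9 mice, again without overlap and with A31 as the highest WT mouse, for a log2 fold change of -0.29 ± 0.09 (edgeR adjusted p = 0.36). The core protein Uqcrc1 differed from both, at 209, 209.9, 212 and 212 CPM in the WT mice and 207, 213, 215 and 228 CPM in the APPPS1ΔE9 mice, which overlapped. The other core protein, Uqcrc2, had a log2 fold change of -0.14 ± 0.066, the Rieske iron-sulfur protein Uqcrfs1 -0.12 ± 0.065 and cytochrome c1 (Cyc1) -0.092 ± 0.052, all at an unadjusted p above 0.05.

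In complex IV, Cox6c and Cox7b came first, both small membrane subunits on the outside of the catalytic core. Cox6c was at 148, 152, 163 and 176 CPM in the WT mice and at 118, 137, 137 and 144 CPM in the APPPS1ΔE9 mice, without overlap, and its log2 fold change was -0.25 ± 0.071 (edgeR adjusted p = 0.343). Cox7b was at 129, 132, 144 and 159.6 CPM in the WT mice and at 103, 120.5, 123 and 124 CPM in the APPPS1ΔE9 mice, for -0.27 ± 0.078 (edgeR adjusted p = 0.349). The groups did not overlap and A71 stood below its 3 group mates. Cox7b lies on the X chromosome, and 3 of the 4 WT mice had high Xist. Cox8a was at 233, 239, 245 and 249 CPM in the WT mice and 198, 212, 220.4 and 225 CPM in the APPPS1ΔE9 mice (-0.18 ± 0.056). Among the other subunits, Cox4i1 had a log2 fold change of -0.11 ± 0.057, Cox5a, a matrix-side subunit, -0.091 ± 0.056, and Cox5b, its zinc-binding neighbour, 0.078 ± 0.067. The supercomplex factor Cox7a2l stood at -0.034 ± 0.062.

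In complex V, the lowest p-values were those of Atp5j and Atp5k. Atp5j, coupling factor 6 in the peripheral stalk, was at 126, 131, 136 and 149 CPM in the WT mice and at 104, 114, 118 and 119.9 CPM in the APPPS1ΔE9 mice. Every APPPS1ΔE9 value lay below every WT value, with a log2 fold change of -0.25 ± 0.064 (edgeR adjusted p = 0.305). Atp5k, the e subunit that helps ATP synthase to form dimers, was at 81.1, 87.3, 92.9 and 96.8 CPM in the WT mice and at 64.9, 72.7, 73.9 and 82.4 CPM in the APPPS1ΔE9 mice, for -0.28 ± 0.076 (edgeR adjusted p = 0.329). Here the highest APPPS1ΔE9 mouse was above the lowest WT mouse. The epsilon subunit Atp5e stood at -0.24 ± 0.065. In the catalytic head, Atp5b was at 1289, 1289.6, 1318 and 1328 CPM in the WT mice and 1174, 1225, 1248 and 1275 CPM in the APPPS1ΔE9 mice (-0.086 ± 0.062). These groups did not overlap although the difference was small. Atp5a1 had a log2 fold change of -0.067 ± 0.064, the gamma subunit Atp5c1 -0.13 ± 0.069, and the delta subunit Atp5d 0.036 ± 0.07.

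The lower members were mostly short transcripts. Of the 29 members whose longest coding transcript is under 1 kb, 16 were lower at an unadjusted p under 0.05, with a median log2 fold change of -0.22. The 12 members of 1 to 2 kb had a median of -0.11 with 2 lower, and the 2 longer members one of -0.067 with 0 lower. Other protein-coding genes followed the same order, with medians of -0.13 over 619 short genes, -0.057 over 2757 genes of middle length and 0.015 over 11207 long genes. In these classes 21.3%, 11.7% and 4.07% of the other genes were lower at an unadjusted p under 0.05. With an offset for GC content and the length of all exons, 14 members were lower and 1 higher at that p. Of all genes 5.04% were lower, and the members' median was -0.11. That length is not the one of the classes above, and how far the offset adjusts for them was not tested. Atp5l has 544 bases in its longest coding transcript and 6443 in all exons, and Cox6c has 738 and 3567. The part of transcript length in the rest was not tested.

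**Figure D4:**
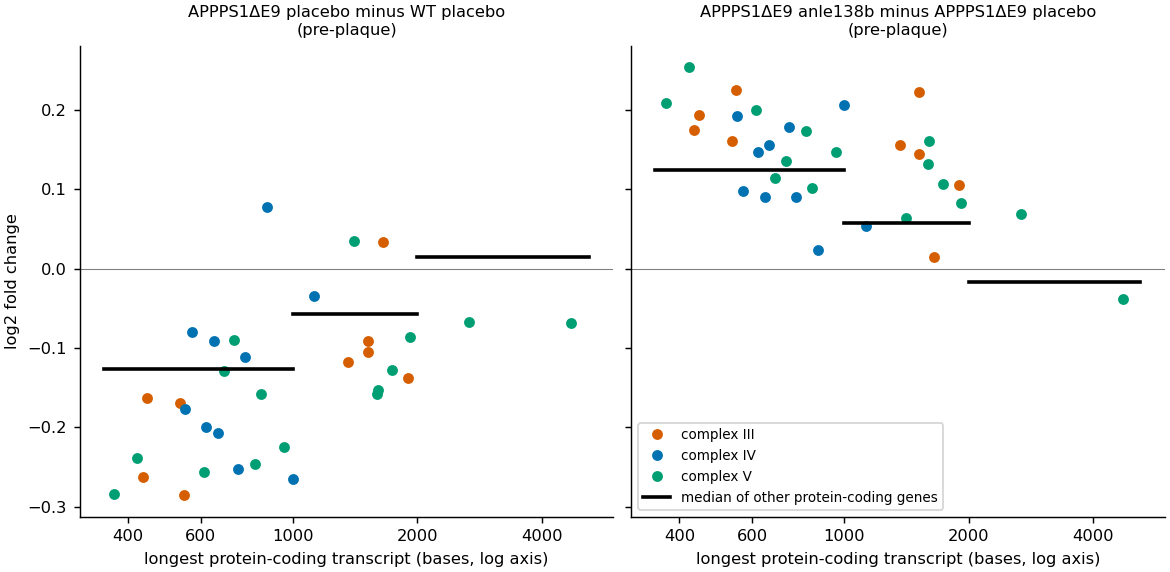
Log2 fold change against the length of the longest protein-coding transcript (log axis) for the 34 members with a mean of at least 10 CPM, with bars for the median of all other protein-coding genes in 3 length classes. In placebo-treated APPPS1ΔE9 against WT mice (left) the bars stand at -0.13, -0.057 and 0.015, and in anle138b-treated against placebo-treated APPPS1ΔE9 mice (right) at 0.12, 0.058 and -0.016.

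Other gene groups were lower beside the members, without a call in edgeR. Of 35 subunits of complex I, 17 were lower at an unadjusted p under 0.05, with a median log2 fold change of -0.15, and of 4 subunits of complex II 2 were lower, with a median of -0.12. Of 80 cytosolic ribosomal proteins tested 23 were lower, with a median of -0.13, and of 33 assembly and accessory factors of complexes III to V 5 were lower, with a median of -0.092. These were Atpif1, the inhibitor of the ATP synthase, Ndufa4, a subunit attached to complex IV, Uqcc2, Coa3 and Usmg5. Among 11 regulators of mitochondrial biogenesis Tfam, the main factor of mitochondrial DNA packaging, was lower and Pprc1 higher at that p, with a median of 0.027. Of the mitochondrially encoded subunits, mt-Cytb and mt-Co1 passed the filter on low counts, and both were lower at an unadjusted p under 0.05, with a median of -0.25. Mitochondrial genes took 4.82% to 5.36% of the counts in the 4 WT mice and 3.71% to 4.504% in the 4 APPPS1ΔE9 mice, with the lowest value in A71. The 6 neuron markers were all above 0, with a median of 0.029, none of them at an unadjusted p under 0.05. Among 5 markers of plaque-associated microglia 3 were called higher by edgeR (Clec7a, Cst7 and Itgax, median 2.26), and their part in the members' levels was not tested. In bulk tissue, fewer cells of a type and less RNA per cell cannot be told apart.

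Several measures differed between these groups together with the members. Xist was high in 3 of the 4 WT mice and in 0 of the 4 APPPS1ΔE9 mice. With Y-linked expression as a covariate 0 of 43 members were lower at an unadjusted p under 0.05, against 1.7% of all genes. The median was then -0.11, with 37 of 43 members below 0. This covariate nearly follows genotype here, so the fit cannot tell them apart. Choroid plexus markers were high in 3 of 4 WT mice and in 1 of 4 APPPS1ΔE9 mice, with all 5 markers below 0 and a median log2 fold change of -1.26. With the log2 of their sum as a covariate, an alternative chosen after seeing the data, 15 members were lower, against 3.67% of all genes, and the median was -0.14. The WT mice were in lane 4 and the APPPS1ΔE9 mice in lane 5, so that lane and genotype cannot be told apart. The only group of the cohort with mice in lanes 4 and 5 was that of anle138b-treated WT mice. B33 and B39 were in lane 4, and B41 and B83 in lane 5. The 34 abundant members were higher by a mean of 0.058 on the log2 scale in lane 5 than in lane 4, with 8 of 34 lower. The median over all genes was -0.0091, and the share of all genes that were lower was not computed. B83 had choroid plexus markers at 254 CPM, against 6614 to 7924 CPM in its group mates. With so few mice an effect of lane was not tested. Leaving out A71 gave 13 lower members at an unadjusted p under 0.05, while the share of all genes went from 5.86% to 3.36%, and leaving out each of the 8 mice in turn gave 39 to 41 members below 0.

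The second comparison asked what anle138b changed in APPPS1ΔE9 mice before plaques. Most subunits were higher in the treated mice, and again no member passed the threshold in edgeR. An adjusted p under 0.1 was reached by 0 of 42 members and by 0.0529% of 17009 genes. At an unadjusted p under 0.05, 19 of 42 members were higher and 0 lower, against 5.5% and 7.63% of all genes. In 12 of 42 members all treated values lay above all placebo values, against 2.63% of all genes, and 3 of 42 had a log2 fold change below 0, against 50.6%. The median was 0.15 over the members, with 0.16 in complex III, 0.15 in complex IV and 0.13 in complex V. This comparison uses the same 4 placebo-treated APPPS1ΔE9 mice as the first, A71 included, so low values in them enter both. The 19 higher members were Cyc1, Uqcr10, Uqcr11, Uqcrfs1 and Uqcrh, then Cox6b1, Cox6c, Cox7b, Cox7c and Cox8a, and Atp5e, Atp5f1, Atp5g3, Atp5h, Atp5j, Atp5j2, Atp5k, Atp5mpl and Atp5o, with log2 fold changes between 0.10 (Atp5o) and 0.29 (Cox7c). Leaving out mouse B27 gave 11 members higher at an unadjusted p under 0.05 and 3.1% of all genes, and leaving out A71 gave 11 members, 3.64% of all genes and a median of 0.10.

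DESeq2 called Atp5e and Cox8a in this comparison, where it called 1.32% of 15562 genes. Atp5e was at 71.6, 78.5, 79.7 and 79.95 CPM in the placebo-treated and 82.9, 92.9, 96.3 and 97.6 CPM in the anle138b-treated APPPS1ΔE9 mice. The WT mice were at 84.6, 85.3, 96.1 and 99.5 CPM on placebo and 83.4, 86.2, 86.9 and 91.2 CPM on anle138b. The treated APPPS1ΔE9 mice lay above the untreated ones and within or just under the range of the WT mice, with a log2 fold change of 0.25 ± 0.061 (edgeR adjusted p = 0.28, DESeq2 adjusted p = 0.0386, with adjusted p from 0.0259 to 0.66 over the alternatives).

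Cox8a was at 198, 212, 220.4 and 225 CPM in the placebo-treated and 236, 243, 245 and 254 CPM in the anle138b-treated APPPS1ΔE9 mice, and at 228, 232, 233 and 234 CPM in the anle138b-treated WT mice. The treated APPPS1ΔE9 mice lay above all anle138b-treated WT mice, and no value overlapped with the placebo-treated APPPS1ΔE9 mice. The log2 fold change was 0.19 ± 0.052 (edgeR adjusted p = 0.28, DESeq2 adjusted p = 0.0544, with adjusted p from 0.0544 to 0.66 over the alternatives). Uqcr10 reached 97.97, 98.3, 102 and 102 CPM in the anle138b-treated APPPS1ΔE9 mice and 93.9, 99.98, 103 and 103 CPM in the anle138b-treated WT mice. Its log2 fold change with treatment in APPPS1ΔE9 mice was 0.18 ± 0.056 (edgeR adjusted p = 0.31).

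Other groups were higher beside the members here too, without a call in edgeR. Of 35 complex I subunits 18 were higher at an unadjusted p under 0.05, and of 80 ribosomal proteins 22 were higher and 1 lower. Choroid plexus markers were high in 3 of 4 treated and 1 of 4 placebo-treated mice, with a median log2 fold change of 1.15, and with their sum as a covariate 9 members were higher, against 3.2% of all genes, and the median was 0.11. The groups were in lanes 6 and 5, which cannot be told apart from treatment. Xist was low in all 8 mice, but Y-linked reads differed. They summed to between 174 and 194 CPM in the treated mice and to 169, 176, 334 and 359 CPM in the placebo-treated mice. A covariate for Y-linked expression gave 25 members higher, against 6.34% of all genes, and a median of 0.198. The 5 markers of plaque-associated microglia were all lower at an unadjusted p under 0.05, with a median of -1.21. With the offset for GC content and length, 12 members were higher, against 4.96% of all genes, and the median was 0.090. Short genes other than the members had a median of 0.12 and long genes one of -0.016. Mitochondrial genes took 4.18% to 5.45% of the counts in the treated mice.

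Between anle138b-treated APPPS1ΔE9 and WT mice before plaques, the members' differences lay on both sides of 0. With edgeR 0 of 43 members had an adjusted p under 0.1, where 0.047% of 17033 genes did, and DESeq2 called 0 members and 0.156% of genes. Of the members, 3 were higher and 1 lower at an unadjusted p under 0.05, against 4.02% and 1.63% of all genes, and 20 of 43 were below 0, against 51.8%. Leaving out B16 gave 1 higher, against 2.52% of all genes, and leaving out B15 gave 13 below 0. The median was 0.0014. Among the higher ones were Uqcrq, a small complex III subunit that binds ubiquinone, with a log2 fold change of 0.32 ± 0.11, and Atp5d with 0.17 ± 0.059 (edgeR adjusted p = 0.836 for both). Uqcrq was at 53.9, 67.8, 73.97 and 76.3 CPM in these APPPS1ΔE9 mice and at 51.7, 52.9, 54.5 and 60.02 CPM in the WT mice, so that mouse B84 lay among the WT values. Without B84, edgeR called 1 member, Uqcrq, at a log2 fold change of 0.41, where it called 44 of 17186 genes. Atp5d was at 124, 135, 143 and 148 CPM and 118, 119, 126 and 127 CPM, with B84 again inside the WT range. With the offset for GC content and length the members' median was -0.031, with 28 of 43 below 0. With Y-linked expression as a covariate it was 0.0022, with 20 below 0. Xist was high in 2 of the 4 WT mice and in 0 of the 4 APPPS1ΔE9 mice. The APPPS1ΔE9 mice were in lane 6 and the WT mice in lanes 4 and 5, so lane and genotype cannot be told apart here.

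In pre-plaque WT mice most members were slightly lower on anle138b. With edgeR 0 of 43 members passed the threshold, as did 0% of 16766 genes, and DESeq2 called 0 members and 0.00644% of genes. There were 2 members lower and 0 higher at an unadjusted p under 0.05, against 1.15% and 0.698% of all genes, and 33 of 43 were below 0, against 49.5%. The median was -0.036. Without mouse A31, the highest placebo-treated WT mouse, 21 were below 0, the median was 0.0022 and the direction of the set was lost. The lower ones were Uqcr11, a subunit beside the Rieske protein, at -0.16 ± 0.071, and Cox6a2 at -0.37 ± 0.17 (edgeR adjusted p = 0.9998 for both). Uqcr11 was at 51.03, 53.4, 56.7 and 63.3 CPM on placebo and 46.4, 49.96, 52.1 and 52.4 CPM on anle138b. Cox6a2 was at 2.11, 2.68, 2.93 and 3.002 CPM on placebo and 1.84, 1.96, 2.21 and 2.28 CPM on anle138b, and both members overlapped between the groups. Within lane 4 alone the median was -0.066 over 43 members.

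Whether anle138b acted differently in the 2 genotypes was tested as the difference of the genotype effects on anle138b and on placebo. With edgeR 0 of 43 members and 0% of 17404 genes passed the threshold. At an unadjusted p under 0.05, 17 members were higher and 0 lower, against 4.59% and 3.4% of all genes, 3 of 43 were below 0, against 50.4%, and the median was 0.18. DESeq2 called 1 member, Cox8a, where it called 0.341% of 8219 genes. The difference of effects for Cox8a was 0.26 ± 0.063 on the log2 scale (edgeR adjusted p = 0.516, DESeq2 adjusted p = 0.0111, with adjusted p from 0.0111 to 0.888 over the alternatives). Uqcr10 had 0.27 ± 0.076 and Atp5e 0.33 ± 0.091, and both had an edgeR adjusted p of 0.533. Leaving out B27 or A71 gave 9 members higher, against 3.09% and 2.99% of all genes. With Y-linked expression as a covariate 11 were higher, against 4.25%, and with the offset for GC content and length 7, against 3.6%, with a median of 0.11.

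In the post-plaque group no member passed the threshold, and in placebo-treated APPPS1ΔE9 against WT mice most members had a log2 fold change above 0. Here too lane followed the groups, apart from A56 and B58, and its part in the post-plaque comparisons was not tested. With edgeR 0 of 41 members had an adjusted p under 0.1 between placebo-treated APPPS1ΔE9 and WT mice, where 0.324% of 16971 genes did, and DESeq2 called 0 members and 0.599% of genes. At an unadjusted p under 0.05, 1 was higher and 0 lower, against 2.59% and 1.51% of genes, and 8 of 41 were below 0, against 51%. The median was 0.065, or 0.021 without A57 and 0.037 with the offset for GC content and length. With Y-linked expression as a covariate 4 members were higher, against 2.25% of genes, and the median was 0.12, and with only the mice that had Y-linked reads 4 were higher, against 2.89%, and the median was 0.13. Leaving out A56 put 13 members below 0. The higher one was Uqcr11, at 38.4, 42.7, 45.8, 50.4 and 55.5 CPM in the APPPS1ΔE9 mice and 34.9, 36.8, 38.6, 41.6 and 42.6 CPM in the WT mice, with overlap (0.25 ± 0.097, edgeR adjusted p = 0.99997). Uqcr10, the first of its complex before plaques, was at 70.6, 70.8, 77.5, 79.1 and 88.4 CPM and 68.9, 71.3, 72.9, 75.8 and 78.1 CPM.

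The difference of the placebo genotype effect between the cohorts was tested as well. With edgeR 0 of 43 members and 0% of 17681 genes passed the threshold, and DESeq2 called 0 members and 0.0951% of genes. The effect was higher after plaques in 14 of 43 members and lower in 0 at an unadjusted p under 0.05, against 3.4% and 2.75% of all genes, 4 of 43 were below 0, against 51.4%, and the median was 0.19. The lowest p-values in each complex were those of Atp5j at 0.32 ± 0.079, Uqcr10 at 0.33 ± 0.095 and Cox6c at 0.27 ± 0.084 (edgeR adjusted p = 0.635, 0.635 and 0.666). Leaving out A71 gave 10 members higher, against 2.21% of all genes.

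On anle138b, post-plaque APPPS1ΔE9 mice had 0 of 42 members past the threshold with edgeR in the comparison with WT mice, where 0.723% of 17151 genes passed, and DESeq2 called 0 members and 0.892% of genes. None had an unadjusted p under 0.05, where 3.61% of all genes were higher and 2.17% lower, and leaving out B108 gave 4 lower members, against 2.92% of genes. With Y-linked expression as a covariate 10 members were lower, against 6.23% of genes, and with only the mice that had Y-linked reads 6 were lower, against 5.59%, with a median of -0.11. The median over all mice was -0.058, or -0.034 with the choroid plexus covariate, and 34 of 42 members were below 0, against 51%. For treatment in post-plaque APPPS1ΔE9 mice, edgeR called 0 of 41 members and DESeq2 0 of 43, and both called 0% of genes. At an unadjusted p under 0.05, 1 member was lower and 0 higher, against 0.643% and 0.842% of genes. The median was -0.059, with 33 of 41 below 0, against 48.3%, and it was -0.026 without A57 and -0.037 with the choroid plexus covariate. The lower one was Uqcr11, with the lowest value, the median and the highest at 30.1, 36.02 and 48.6 CPM in the 7 treated mice, within and below the range on placebo (-0.32 ± 0.12, edgeR adjusted p = 0.999). In WT mice after plaques, edgeR called 0 of 42 members and DESeq2 0 of 43, both called 0% of genes, and 0 members had an unadjusted p under 0.05, against 0.612% of genes higher and 0.636% lower. The median was 0.059 with 8 of 42 below 0, against 49.8%. Leaving out single mice gave up to 14 below 0 (without A56) and up to 4 higher (without A55, against 1.32% of genes). With the choroid plexus covariate the median was -0.0035 and 22 of 42 were below 0, so that the direction was lost.

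The difference of the genotype effects between anle138b and placebo after plaques had a median of -0.11, with 0 of 42 members past the threshold in edgeR and 0 of 43 in DESeq2, 0% of 17668 genes past it in edgeR and 0.00586% past it in DESeq2. Below 0 were 35 of 42, against 49.3%. At an unadjusted p under 0.05, 2 members were lower and 0 higher, against 1.15% of genes in each direction, and leaving out A100 gave 7 lower, against 1.91% of genes. With the choroid plexus covariate 0 were lower, against 0.809%, and the median was -0.067. The lower ones were Uqcr11 at -0.35 ± 0.14 and Atp5h, the d subunit of the peripheral stalk, at -0.17 ± 0.076 (edgeR adjusted p = 0.989 for both). Atp5h was at 40.6, 42.8, 45.3, 47.1 and 47.3 CPM in placebo-treated and 44.9, 45.6, 47.9, 48.2 and 51.00 CPM in anle138b-treated WT mice. In APPPS1ΔE9 mice it was at 44.9, 45.9, 47.2, 47.96 and 48.4 CPM on placebo, and its lowest value, median and highest value on anle138b were 40.8, 44.1 and 48.9 CPM. All 4 groups overlapped. Post-plaque mice also differed in other cells: oligodendrocyte markers summed to between 2330 and 7351 CPM. Mouse A57, the highest of the placebo-treated APPPS1ΔE9 mice in 22 of 34 abundant members, was at 2696 CPM, and A100, the lowest of that group in 20 of 34, at 6067 CPM. The part of oligodendrocyte content in the members' levels was not tested.

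Among the rare forms of complex IV, 3 of them were higher where the choroid plexus markers were high. Cox8b was between 1.17 and 5.56 CPM in the 11 mice with high choroid plexus markers and between 0 and 1.05 CPM in the other 27. Cox7a1 was between 2.02 and 3.01 CPM in the former and between 0.665 and 1.86 CPM in the latter. Cox6b2 was between 5.004 and 7.67 CPM against 1.12 to 5.21 CPM, which overlapped. This division follows the marker level, but all of the 11 mice except B99 were pre-plaque, so it partly follows the cohort. The share of all genes that divide in this way was not computed. It is a description with no test. Mouse B99, the 1 post-plaque mouse with high markers, had the highest Cox8b and Cox7a1 levels of its cohort. Cox4i2 (0.796 to 1.29 CPM against 0.561 to 1.40 CPM), Cox6a2 and the abundant Atp5a1 (831 to 1030.4 CPM against 801 to 1083 CPM) showed no such division.

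**Figure D5:**
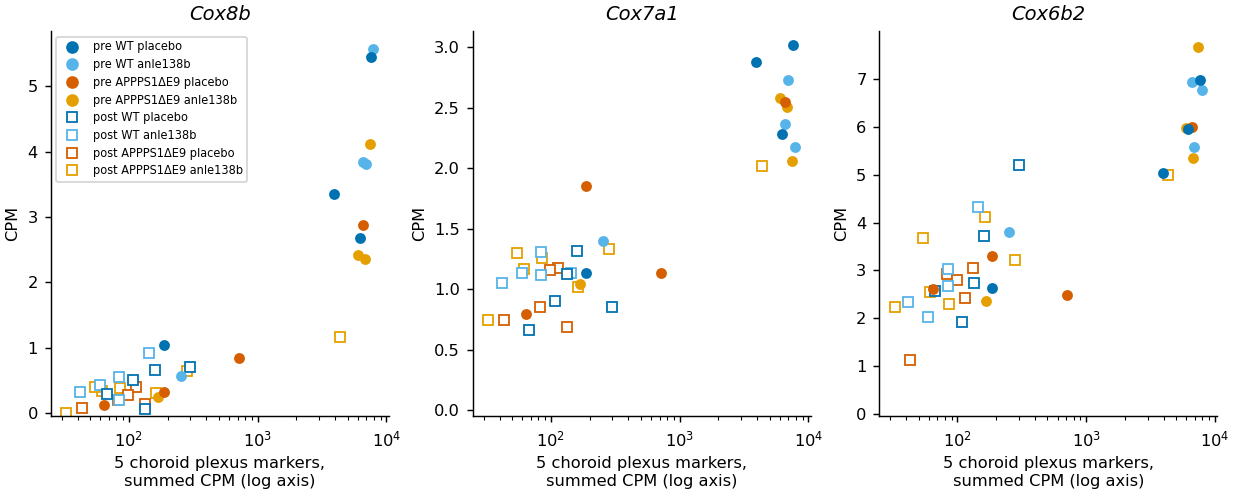
CPM of Cox8b, Cox7a1 and Cox6b2 in each of 38 mice against the summed CPM of 5 choroid plexus markers on a log axis, with filled circles for pre-plaque and open squares for post-plaque mice and color for genotype and treatment. The 11 mice at 3943 CPM or more on the x axis hold all Cox8b values above 1.05 CPM and all Cox7a1 values above 1.86 CPM. All of these mice except B99 are pre-plaque.

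The large fold changes of these rare forms before plaques have wide errors. Cox8b had a log2 fold change of -1.57 ± 0.89 in placebo-treated APPPS1ΔE9 against WT mice, with 1.05, 2.68, 3.36 and 5.45 CPM in the WT mice and 0.119, 0.317, 0.851 and 2.87 CPM in the APPPS1ΔE9 mice. The groups overlapped, and the 1 APPPS1ΔE9 mouse above 1 CPM, A17, was the 1 with high choroid plexus markers. Cox7a1 had -0.55 ± 0.38 and Cox6b2 -0.51 ± 0.36 in the same comparison, and the edgeR adjusted p of the 3 genes was between 0.55 and 0.611. Without these and the other rare forms, the level over the 34 abundant members still differed by -0.14 on the log2 scale between these groups.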

How the data were processed

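The authors made mRNA libraries (TRIZOL extraction, TruSeq) from the hippocampus of each mouse, mapped the reads to mm10 with STAR and deposited 1 file of HTSeq read counts per gene and mouse (intersection-nonempty mode). Whether strand was used is not given in the sources used here. The authors tested differences with DESeq2. The counts were used here as deposited, with 48349 of 48709 gene IDs matched to GENCODE M21 symbols. Total counts were 15847985 to 31895808 per mouse (median 24530658).

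The members and lists were chosen with earlier results of these data known. Groups came from the sample titles, and each mouse counted as 1 replicate. Pairs of groups were compared with edgeR 4.0.16 in R 4.3.3 by its quasi-likelihood test (TMM, filterByExpr with a minimum count of 10 and a total of 15, robust fit), in place of the authors' tool, with Benjamini-Hochberg adjustment over all genes and a threshold of 0.1. Errors beside log2 fold changes are standard errors. Differences of effects were contrasts in a fit of the groups concerned. The calculations were tested on simulated data. The level per mouse is the mean log2 CPM (TMM over 38 mice, prior count 2). CPM per kb used the longest protein-coding transcript, and the GC and length offset used the length of all exons. Pseudogene copies shared at least 90% identity over 100 bases and 50% of their length.

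Values in every mouse are given for members called by edgeR or DESeq2 1.42.0, for the 2 of lowest p in each complex in the first comparison and the 1 of lowest p elsewhere if under 0.05. Alternatives were DESeq2, RLE size factors, no filter, a threshold of 0.05, 1 fit over the 4 groups of a cohort, Y-linked expression as a covariate or mice with it only, a GC and length offset, a replicate block, 1 lane, each mouse left out, and, chosen after seeing the data, a choroid plexus covariate and a minimum of 10 CPM for the level. The deviations of same-numbered mice correlated between -0.59 and 0.63 over all comparisons, and the main fits used no pairing. Before plaques all correlations were positive in WT treatment (0.025 to 0.56) and in the genotype comparison on anle138b (0.014 to 0.47).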

Additional observations from a re-analysis of the deposited data

Results flagged for a closer look

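In 8 of 232 sets of values in groups of 4 to 7 mice, 1 mouse stood far from the rest of its group, measured by its gap to the nearest mouse over the range of the group. About 1 in 20 such sets passes by chance. Mouse A71 was low among placebo-treated APPPS1ΔE9 mice before plaques in Uqcr10, at 79.4 CPM against 91.4 to 92.4 CPM in its group mates, and in Cox7b, at 103 CPM against 120.5 to 124 CPM.

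Mouse B15 stood apart from the other 3 anle138b-treated APPPS1ΔE9 mice before plaques in 3 members. It was low in Cox6b1, at 193 CPM against 218 to 223 CPM, and high in Cox6a2, at 3.15 CPM against 2.05 to 2.20 CPM, and in Cox7b2, at 0.493 CPM against 0.184 to 0.216 CPM.

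Mouse B41 was high in Cox4i1 among anle138b-treated WT mice before plaques, at 421 CPM against 400.2 to 402 CPM. After plaques, mouse B109 of the anle138b-treated APPPS1ΔE9 mice was high in Uqcrq, at 74.7 CPM against 34.9 to 51.7 CPM, and low in Cox4i2, at 0.587 CPM against 0.928 to 1.18 CPM.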

How the results depend on the processing

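In edgeR 0 members passed the threshold in any comparison, and this count changed under a few alternatives. DESeq2 called 1 member in the pre-plaque placebo comparison of genotypes, 2 for pre-plaque treatment in APPPS1ΔE9 mice and 1 in the pre-plaque difference of effects. Without a filter on low counts edgeR called 6 members (110 of 31080 genes) in the first of these and 1 (120 of 31422 genes) in the second, and 2 (35 of 17404 genes) in the first with the 4 groups in a single fit. Leaving out each mouse gave 0 to 1 members in the genotype comparison on placebo, with Uqcr10 called without A17. There edgeR called 205 of 16930 genes, against 12 of 16774 with all mice. The range was the same in the genotype comparison on anle138b (Uqcrq, without B84, 44 of 17186 genes against 8 of 17033). It was also the same in the treatment of APPPS1ΔE9 mice (Atp5e, without B84, 16 of 17235 genes against 9 of 17009). With only the mice that had Y-linked reads, 2 against 2, edgeR called 25 members for treatment in post-plaque WT mice with a median log2 fold change of 0.21, where it called 5550 of 17203 genes. The cause was not tested. This alternative left too few mice in the pre-plaque placebo comparison of genotypes and in pre-plaque WT treatment.

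The spread between replicates was taken as the SD of the level per mouse within groups, 0.081 on the log2 scale. Of the members' medians, 222 moved by less than this and 1 by more, and all 32 values of the level per mouse stayed within it. The medians between pairs of post-plaque groups were themselves smaller than this, so a loss of direction could count as no move. In post-plaque WT treatment the move from 0.059 to -0.0035 with the choroid plexus covariate counted so. For named members 462 values kept their side of the threshold, 15 came to pass it and 0 changed sign. With the replicate block, edgeR called 0 members in each comparison, with medians of -0.16 for genotype on placebo, 0.15 for treatment of APPPS1ΔE9 mice and 0.18 for the difference of effects, all before plaques. After plaques the block gave more members lower at an unadjusted p under 0.05, with 9 (5.55% of genes) for genotype on anle138b, 4 (1.91%) for treatment of APPPS1ΔE9 mice and 10 (2.7%) for the difference of effects. With 4 to 7 mice a group, p-values measure the spread between these mice only.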
